A study of Mus musculus with 36 samples.

Results

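Type I interferon-induced genes are the genes that a cell switches on when an interferon of the alpha or beta class binds its receptor. The 37 members described here were chosen by name from the genes known for this response, and each was read from the Affymetrix probe set with 1 gene symbol and the highest mean over the 36 arrays. Of the 37, 34 had such a probe set, and all 34 passed the floor on dim genes (a log2 signal of 5.66, the pooled median, in at least 2 arrays), within 18193 genes measured and 14495 tested. The only probe set listed for Isg15 is shared with another symbol, and Oas1g and Ifi44 are not named in the annotation used; these 3 were not analysed here. The arrays hold RNA of 6 stromal populations sorted from the thymus of wild-type male C57BL/6J mice. The populations are cortical thymic epithelial cells (cTEC), medullary epithelial cells low for CD80 and MHC class II (mTEClo), medullary epithelial cells high for both (mTEChi), dendritic cells (DC) without Sirpa, DC with Sirpa, and fibroblasts. Mice were aged 1, 3 or 6 months, and 2 arrays were made for each population and age, so a population has 6 arrays. Sample labels speak of a single mouse and the design text of 2 mice for an age, and whether 2 mice gave all 12 arrays of that age is not settled by them. The p-values measure the spread between these samples and take the arrays as independent, which would not hold if arrays shared a mouse. The labels name no treatment or infection, and every group is wild type.

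Type I interferons bind the receptor made of Ifnar1 and Ifnar2, whose kinases Jak1 and Tyk2 phosphorylate STAT proteins, Stat2 among them. These join Irf9 in the complex ISGF3, which binds the interferon-stimulated response element (ISRE) in promoters of the induced genes. The products sense foreign nucleic acid, block viral translation or entry, attach the ubiquitin-like protein ISG15 to other proteins, or raise the response further, as Irf7 does by driving interferon alpha genes. The thymus makes interferon without infection, and medullary epithelium that expresses Aire is a known source of interferon beta. Interferon gamma signals through another receptor and induces an overlapping set, with some genes (such as Cxcl9 and Iigp1) answering mainly to it.

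Defining genes were present in cTEC, mTEChi, both DC populations and fibroblasts, while for mTEClo only its lower Aire level is given here. Median log2 signals were 10.91 for Psmb11 in cTEC, 11.09 for Aire in mTEChi against 7.33 in mTEClo, 8.93 for Xcr1 in Sirpa-negative DC against 4.48 in Sirpa-positive DC, 10.22 for Sirpa in Sirpa-positive DC against 7.56, and 11.02 for Pdgfra in fibroblasts. Some markers sat outside their own sort: the epithelial gene Epcam had a median of 10.06 in Sirpa-positive DC while Foxn1 was at 4.18 there, the mesenchymal gene Pdgfrb 9.92 in mTEChi and Dcn 11.79 in cTEC. Array medians lay between 5.61 and 5.75. In bulk samples of this kind, fewer cells of a type and less RNA per cell cannot be told apart. A level below is a log2 signal, and a difference is on the log2 scale with its standard error (SE). The level of 1 gene is not set against that of another, since probes differ in brightness. Whether probes also bound close relatives (such as Ifit3b for Ifit3, Oas1g for Oas1a and Mx2 for Mx1) was not tested.

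Promoter sequence was at hand for 28 of the 37 members, in windows from 250 bases before the RefSeq start to 50 after it (GRCm38.p6). The ISRE core, searched on both strands as GAAA, any 2 bases and GAAA again (with TTTC on the other strand), was found in 14 of the 28 (50.0%) against 3.99% of 27025 genes. The gamma-activated element, known from the interferon gamma response, was searched as TTCNNNGAA, which reads the same on both strands. It was found in 7 of the 28 (25.0%) against 9.55% of genes. The 2 patterns were counted separately. A match is a description of letters, and no binding was measured. Stretches around the ISRE letters follow for members on which the results turn, each read 5′ to 3′ on the gene's strand, with the matches in capitals. Ifit1 and Ifit3 each hold 2 separate copies, and both genes part the DC populations. Of the 10 members called between the DC, 5 hold the letters (Ifit1, Ifit3, Oas1a, Ifitm3 and Cxcl10), 3 do not in this window (Oasl2, Ifitm1 and Lgals3bp), and Oas2 and Rtp4 have no window here.

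Ifit1, chr19:34640765-34640833, plus strand: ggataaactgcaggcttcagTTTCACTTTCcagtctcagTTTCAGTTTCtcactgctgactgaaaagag

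Ifit3, chr19:34583353-34583436, plus strand: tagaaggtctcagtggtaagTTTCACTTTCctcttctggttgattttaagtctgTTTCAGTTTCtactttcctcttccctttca

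Cxcl10, chr5:92349073-92349122, minus strand: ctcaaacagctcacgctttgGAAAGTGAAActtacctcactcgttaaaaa

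The next set holds the same letters yet belongs to genes that did not part the DC populations past the threshold. For Rsad2 this holds for the probe set used, with a difference of 0.85. Another Rsad2 probe set differed by 1.10, and a further, mostly below the floor, by 0.79. These were not tested singly.

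Rsad2, chr12:26456543-26456592, minus strand: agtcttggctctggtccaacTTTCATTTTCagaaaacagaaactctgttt

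Trim30a, chr7:104465200-104465249, minus strand: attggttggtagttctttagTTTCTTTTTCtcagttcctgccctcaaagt

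Stat2 and Bst2, which moved in opposite directions between 1 and 6 months, also hold the letters, in Bst2 as 2 overlapping copies.

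Stat2, chr10:128270256-128270305, plus strand: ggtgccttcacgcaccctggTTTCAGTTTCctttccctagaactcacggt

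Bst2, chr8:71537567-71537622, minus strand: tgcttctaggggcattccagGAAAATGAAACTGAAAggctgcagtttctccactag

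Across the 6 populations, the mean level of the 34 measured members was highest in mTEClo and Sirpa-positive DC and lowest in fibroblasts. It was at least 9.61 in each of the 6 mTEClo arrays and ran from 9.58 to 10.06 in Sirpa-positive DC, 9.06 to 9.39 in cTEC, 8.83 to 9.02 in Sirpa-negative DC, 8.47 to 8.83 in mTEChi and 7.89 to 8.32 in fibroblasts. The arrays of mTEClo and Sirpa-positive DC overlapped each other and no array of the remaining populations. The highest population mean fell in Sirpa-positive DC for 12 members, in mTEClo for 10, in Sirpa-negative DC for 7, in cTEC for 3 and in mTEChi and fibroblasts for 1 each. The lowest mean fell in fibroblasts for 16 members, in mTEChi for 11 and in Sirpa-negative DC for 6. The members did not share 1 order: Sirpa-negative DC held the top level of 7 and the bottom level of 6.

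**Figure D1:**
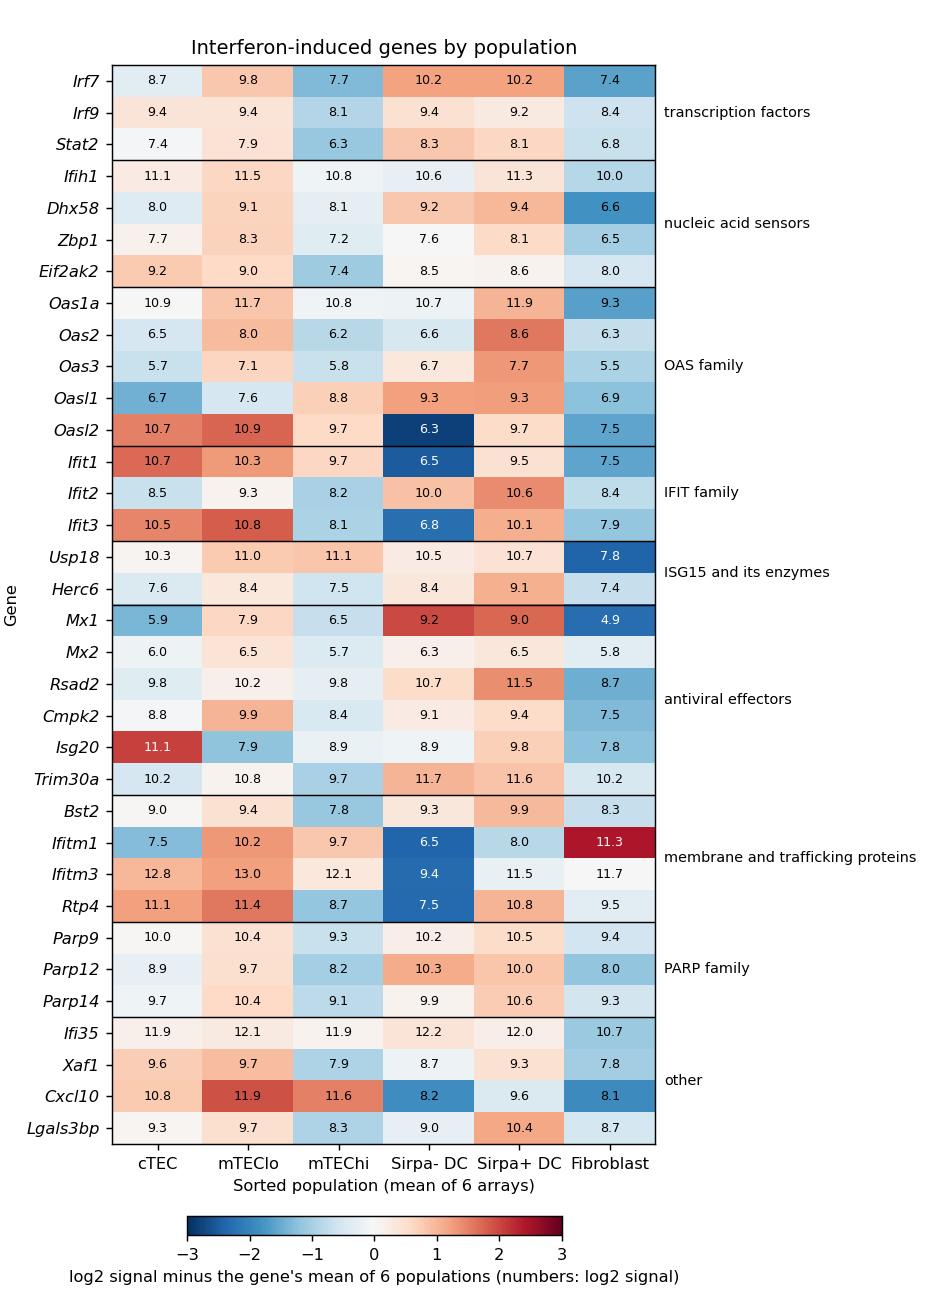
Mean log2 signal of the 34 measured members (rows, grouped by role) in the 6 populations (columns, 6 arrays each); colour is the level minus the gene's mean of the 6 populations and the printed numbers are the levels. Fibroblasts hold the lowest level of 16 members, and Sirpa-negative DC combine low Ifit1, Ifit3, Oasl2 and Rtp4 with high Mx1 and Irf7.

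The pair of DC populations differed in 10 of the 34 members, all higher in Sirpa-positive DC, at an adjusted p under 0.05 in limma (Benjamini-Hochberg over all genes tested) and a difference of at least 2-fold. Of all genes tested, 3.87% were higher and 1.5% lower by the same rule. The median difference was 0.62 over the members and 0 over all genes. Without overlap between the 6 arrays of each population, 14 members were higher (6.4% of all genes) and 0 were lower (5.14%). The 10 fell in a few families: 3 of 5 OAS genes, 2 of 3 IFIT genes, 3 of 4 membrane and trafficking genes, Cxcl10 and Lgals3bp. None of the 3 transcription factors, the 4 sensors, the 6 antiviral effectors or the 3 PARP genes passed.

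Ifit3, which binds Ifit1 and helps it block the translation of foreign RNA, had levels of 6.45 (lowest), 6.65 (median) and 7.32 (highest) in Sirpa-negative DC and of 9.64, 10.13 and 10.68 in Sirpa-positive DC. Ifit1, which recognises RNA with an unmodified cap, ran at 6.00, 6.61 and 7.01, against a lowest array of 8.92 and a median of 9.47. For both genes every Sirpa-positive array lay above every Sirpa-negative array. The differences were 3.35 ± 0.15 for Ifit3 (adjusted p = 8.07e-15) and 2.94 ± 0.15 for Ifit1 (adjusted p = 1.46e-13), or 10.2-fold and 7.68-fold. The third family member, Ifit2, did not share this gap: it stood at 9.42, 10.06 and 10.40 in Sirpa-negative and 10.16, 10.59 and 11.03 in Sirpa-positive DC, and both medians were above those of the 4 populations outside the DC.

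The OAS family parted in the same manner. Oasl2, an OAS-like protein with ubiquitin-like domains, was at 5.98, 6.17 and 7.07 in Sirpa-negative DC and at 9.27, 9.73 and 10.05 in Sirpa-positive DC. Its arrays did not overlap, and the difference was 3.36 ± 0.16 (adjusted p = 2.01e-14). Oasl1, a relative that in mice holds back translation of Irf7, was at 8.86, 9.38 and 9.54 against 8.76, 9.34 and 9.76, with full overlap and a difference of 0.02. Oas1a, Oas2 and Oas3 make the 2′-5′ oligoadenylates that activate RNase L. Oas2 was higher in Sirpa-positive DC by 2.06 ± 0.15 (adjusted p = 1.28e-10) and Oas1a by 1.17 ± 0.16 (adjusted p = 2.61e-06). The Oas1a call sat close to the 2-fold line and was lost without 1 array, Sirpa-positive DC at 3 months, replicate 1, where the difference was 1.00.

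Among membrane and trafficking proteins, Rtp4, a chaperone that carries receptors to the surface, was at 6.70, 7.51 and 8.32 in Sirpa-negative DC and at 10.43, 10.88 and 11.15 in Sirpa-positive DC, a difference of 3.36 ± 0.18 (adjusted p = 3.89e-13). Ifitm3, which hinders fusion of virus with the endosome, was at 8.95, 9.54 and 9.68 against 11.26, 11.55 and 11.90, a difference of 2.09 ± 0.18 (adjusted p = 3.06e-09). Neither gene's arrays overlapped between the populations. Ifitm1, its relative at the cell surface, differed by 1.54 ± 0.24 (adjusted p = 2.14e-05) with overlapping arrays. The chemokine Cxcl10, which draws cells bearing Cxcr3, was higher by 1.42 ± 0.25 (adjusted p = 9.47e-05), and the secreted glycoprotein Lgals3bp by 1.43 ± 0.16 (adjusted p = 1.05e-07).

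**Figure D2:**
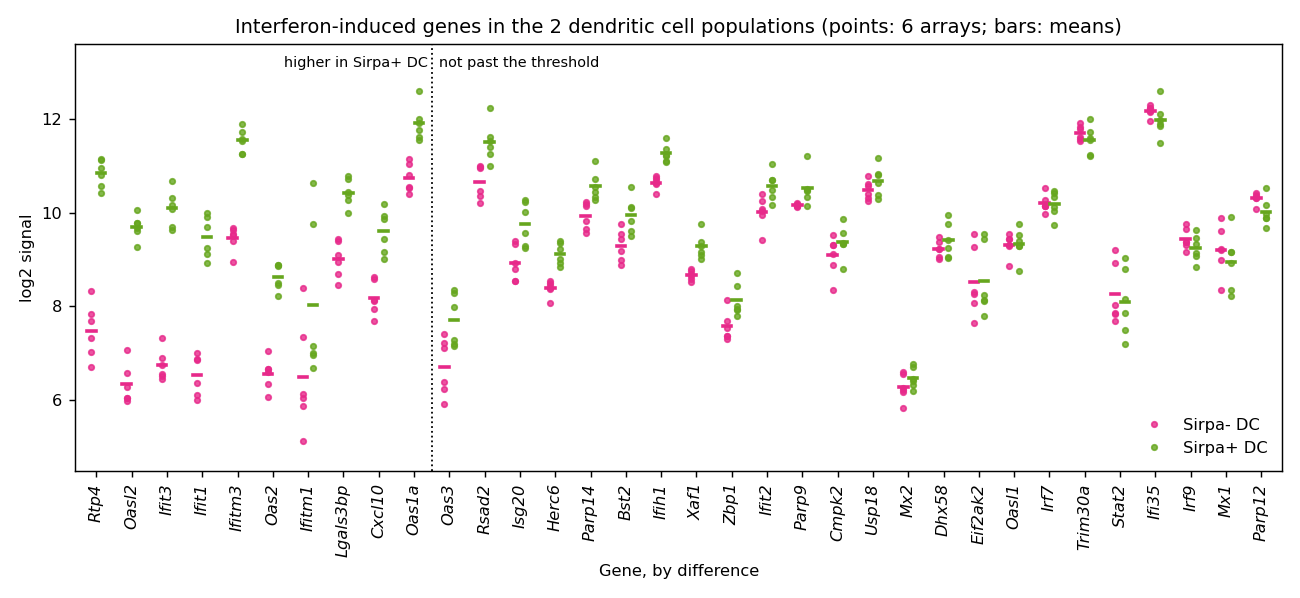
Log2 signal of the 34 measured members (x axis, ordered by difference) in the 6 arrays each of Sirpa-negative and Sirpa-positive DC, with a bar at each mean. The 10 genes left of the dotted line passed the threshold, from Oasl2 and Rtp4 with a difference of 3.36 to Oas1a with 1.17; the remaining 24 did not.

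Against the other 5 populations, Sirpa-negative DC had 7 members lower (13% of all genes) and 6 higher (6.2%), with a median of 0.20 over the members and −0.03 over all genes. Oasl2 was lower by a difference of −3.37 ± 0.12 (10.3-fold), Ifit1 −2.99 ± 0.12, Ifitm1 −2.85 ± 0.19, Rtp4 −2.80 ± 0.14, Ifitm3 −2.76 ± 0.14, Ifit3 −2.72 ± 0.11 and Cxcl10 −2.23 ± 0.19. For Ifit1 and Ifitm3 all 6 arrays lay below all 30 others, which 0.952% of genes did. The 6 higher members were the dynamin-like GTPase Mx1 (2.37 ± 0.15), Oasl1 (1.47 ± 0.12), Irf7 (1.46 ± 0.10), Parp12 (1.34 ± 0.14), Trim30a (1.22 ± 0.10) and Ifit2 (1.06 ± 0.15, or 0.97 without Sirpa-negative DC at 3 months, replicate 1). C57BL/6 mice carry an Mx1 gene with a deletion that yields no working protein, so its level here is one of transcript. The adjusted p of the 13 ran up to 6.6e-07. Sirpa-positive DC had 15 members higher (6.7%) and 0 lower (10.2%), and 16.9% of all genes were called either way, with a median of 0.87 against −0.05. They were led by Mx1 (2.07 ± 0.15), Oas2 (1.90 ± 0.12), Ifit2 (1.71 ± 0.15), Rsad2 (1.68 ± 0.14) and Oas3 (1.56 ± 0.14). Oas3 was close to or below the floor in cTEC, mTEChi and fibroblasts, so the size of its difference is not read as exact. Mx1 was close to the floor in cTEC and below it in fibroblasts, so its differences are not read as exact either. The differences of Oasl1, Irf7 and Trim30a in Sirpa-positive DC were 1.49 ± 0.12, 1.44 ± 0.10 and 1.03 ± 0.10. Rsad2, the radical SAM enzyme viperin, stood above all 30 other arrays in Sirpa-positive DC, with levels of 10.99, 11.46 and 12.24, as did Herc6, the mouse ligase for ISG15, with 8.84, 9.12 and 9.39 (1.57% of genes did so).

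Markers of other cells moved with this comparison. Of 8 macrophage genes, 6 were higher in Sirpa-positive than in Sirpa-negative DC, and their mean ran from 9.47 to 10.49 against 6.52 to 8.33. Plasmacytoid DC genes had a mean of 7.6 to 8.57 in Sirpa-positive and 7.13 to 8.68 in Sirpa-negative DC, with 1 of 7 higher. Their part in the result was not tested.

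In the medulla, 20 of the 34 members were lower in mTEChi than in mTEClo and 2 were higher, against 7.81% and 11.8% of all genes (19.6% either way). The median difference was −1.12 over the members and −0.04 over all genes. The arrays did not overlap for 21 members that were lower (13.5% of genes) and 2 that were higher (15.1%). The lower group took in all 3 transcription factors, all 3 PARP genes, 2 of 4 sensors, 3 of 5 OAS genes, 2 of 3 IFIT genes, 3 of 6 effectors and 2 of 4 membrane and trafficking genes.

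The transcription factors came first. Irf7 was at 9.62, 9.80 and 9.94 in mTEClo and at 7.46, 7.64 and 7.93 in mTEChi, and no arrays overlapped. Its difference was −2.13 ± 0.13 (adjusted p = 5.44e-13). Stat2 and Irf9, both parts of ISGF3, were lower too, Stat2 by −1.59 ± 0.13 (adjusted p = 2.56e-10) and Irf9 by −1.27 ± 0.13 (adjusted p = 1.28e-08). Stat2 arrays overlapped, at 7.04, 7.65 and 8.99 in mTEClo against 6.03, 6.19 and 7.13 in mTEChi, and the highest array of each population was from 6 months.

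Ifit3 was at 10.39, 10.83 and 11.29 in mTEClo and at 7.74, 8.12 and 8.36 in mTEChi, a difference of −2.77 ± 0.15 (adjusted p = 4.39e-14). Rtp4 was at 11.15, 11.40 and 11.77 against 7.41, 8.77 and 9.23, a difference of −2.75 ± 0.18 (adjusted p = 2.35e-12). For both genes every mTEChi array lay below every mTEClo array. The sensor and kinase Eif2ak2 (PKR), which halts translation when it meets double-stranded RNA, differed by −1.67 ± 0.12, with overlap. Xaf1, known for opposing an inhibitor of apoptosis, differed by −1.84 ± 0.14, Oas2 by −1.77 ± 0.15, Bst2 (tetherin, which holds budding virus at the surface) by −1.58 ± 0.14, Parp12 by −1.49 ± 0.18 and Cmpk2, the mitochondrial nucleotide kinase encoded beside Rsad2, by −1.49 ± 0.18. The adjusted p of these 6 was at most 1.19e-07. The Cmpk2 call was lost in 1 of 9 other settings, where its difference was −0.87.

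Not every member followed. Oasl1 ran the other way, at 6.98, 7.59 and 8.07 in mTEClo and 8.20, 8.94 and 9.38 in mTEChi, with no overlap and a difference of 1.23 ± 0.16 (adjusted p = 2.54e-07). Isg20, a 3′-5′ exonuclease, was at 7.42, 7.87 and 8.21 against 8.35, 8.63 and 10.12. Its difference of 1.01 ± 0.26 (adjusted p = 0.00206) fell to 0.71 without the highest array, mTEChi at 6 months, replicate 2, and to 0.90 with equal array medians, so the 2-fold call was lost. Cxcl10 was high in both, at 11.43, 11.93 and 12.71 in mTEClo and 11.09, 11.49 and 12.34 in mTEChi, with overlap. Usp18, which strips ISG15 from proteins and damps signalling at Ifnar2, was at 10.79, 10.97 and 11.40 against 10.81, 11.10 and 11.29, also overlapping.

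**Figure D3:**
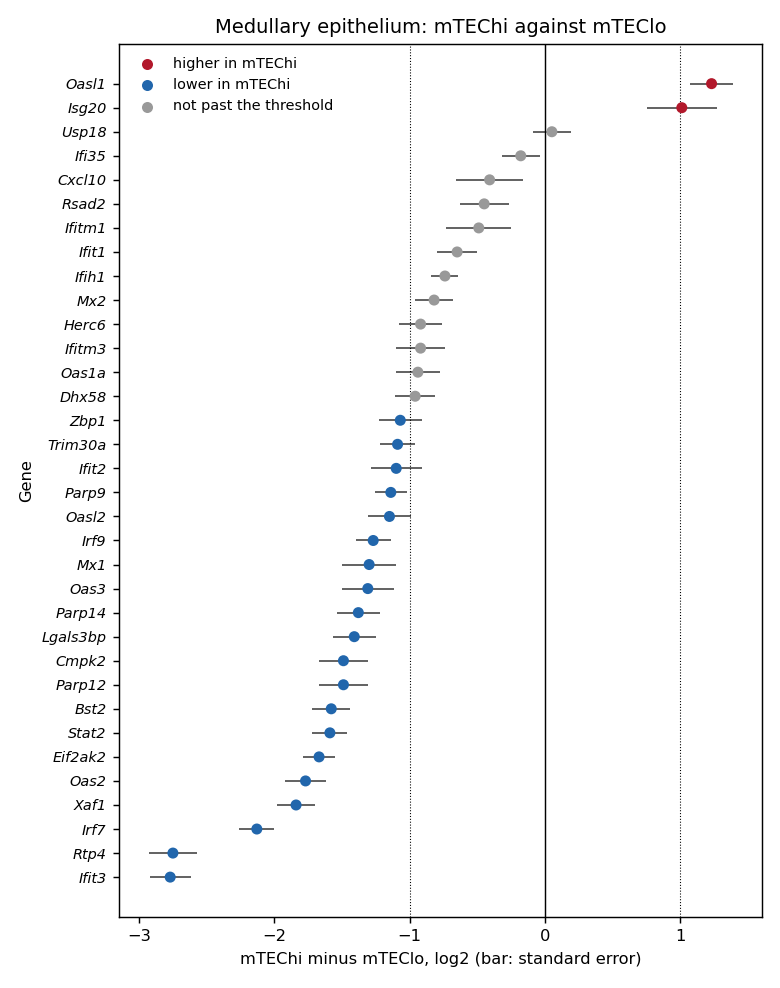
Difference between mTEChi and mTEClo in log2 (x axis) for the 34 measured members (y axis), with bars of 1 SE; blue points are lower and red points higher in mTEChi past the threshold, grey points are not, and dotted lines mark 2-fold. On the lower side lie 20 members, from Ifit3 at −2.77 to Zbp1 at −1.07, and Isg20 and Oasl1 on the higher side.

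Against the other 5 populations, mTEClo had 11 members higher (9.42% of genes) and 1 lower (5.37%), with a median of 0.75 against −0.02. Of the 34, 32 differences were above 0. Beside Cxcl10, Ifit3 and Oasl2, whose differences were 2.3 ± 0.19, 2.19 ± 0.11 and 2.09 ± 0.12, stood Rtp4 (1.90 ± 0.14), Ifitm1 (1.55 ± 0.19), Ifit1 (1.54 ± 0.12), Ifitm3 (1.47 ± 0.14), Cmpk2 (1.24 ± 0.14), Oas2 (1.14 ± 0.12) and Xaf1 (1.10 ± 0.11), each with an adjusted p of at most 9.47e-08. Among 8 other settings, the Cmpk2 and Oas2 calls were each lost in 1, with smallest differences of 0.64 and 0.68. The Xaf1 call was lost in 2, with a smallest difference of 0.96. The lower member in mTEClo was Isg20 (−1.44 ± 0.20, adjusted p = 1.31e-06). In mTEChi, 12 members were lower (5.31%) and 2 higher (13.9%), with a median of −0.75 against −0.07. The higher ones were Cxcl10 (1.81 ± 0.19, adjusted p = 8.14e-09) and Usp18 (1.01 ± 0.11, adjusted p = 1.51e-08). The Usp18 difference was 0.76 with equal array medians, and it fell to 1.00 or below when any 1 of 8 arrays was left out. The Ifit2 difference in mTEChi, −1.18 ± 0.15, was −0.94 without mTEChi at 6 months, replicate 2.

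Macrophage genes were higher in mTEChi than in mTEClo in 5 of 8 cases, with a mean of 6.36 to 6.80 against 5.16 to 5.62. B cell genes were higher in 2 of 4, and of 7 plasmacytoid DC genes 1 was higher and 1 lower. Their part in the result was not tested.

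In cTEC, 6 members were higher than in the other 5 populations (9.73% of genes) and 3 lower (6.37%), with a median of 0.04 against −0.07. Isg20 was at 10.16, 11.16 and 12.32, every array above the median of each other population, with a difference of 2.45 ± 0.20 (adjusted p = 1.29e-10). Ifit1 (2.05 ± 0.12), Oasl2 (1.81 ± 0.12), Ifit3 (1.75 ± 0.11), Rtp4 (1.48 ± 0.14) and Ifitm3 (1.2 ± 0.14) were the remaining higher members, with an adjusted p of at most 8.11e-08. Oasl1 (−1.72 ± 0.12), Mx1 (−1.64 ± 0.15) and Ifitm1 (−1.58 ± 0.19) were lower, with an adjusted p of at most 6.48e-08. Mx1 was close to or below the floor in cTEC, at 5.30, 5.85 and 6.47, so the size of its difference is not read as exact. Comparisons of 1 population with the other 5 share arrays, since each population is part of the reference of the rest.

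Set against both medullary populations, cTEC had 4 members higher (5.4% of genes) and 3 lower (8.24%). Isg20 was higher by 2.74 ± 0.23 (adjusted p = 2.16e-10), with all 6 arrays above the 12 medullary ones. Ifitm1 was lower by −2.36 ± 0.21 (adjusted p = 6.24e-10), Oasl1 by −1.53 ± 0.13 and Mx1 by −1.34 ± 0.17. The Mx1 call was lost in 1 of 9 other settings, where its difference was −0.86. With Mx1 close to the floor in cTEC, the size of its difference is not read as exact. Eif2ak2 (1.03 ± 0.11), Rtp4 (1.03 ± 0.16) and Ifit3 (1.02 ± 0.13) were just past 2-fold, and each dropped to 1.00 or below when single arrays were left out, to 0.89 for Ifit3 without cTEC at 1 month, replicate 2.

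Fibroblasts had 19 members lower than the other 5 populations (9.98% of genes) and 1 higher (8.38%), with a median of −1.18 against −0.04. All 6 fibroblast arrays lay below all 30 others for 6 members (1.43% of genes), Usp18, Mx1, Dhx58, Oas1a, Rsad2 and Ifi35. Usp18 was at 7.02, 7.94 and 8.27 in fibroblasts, while its lowest array elsewhere was 10.04, in cTEC. Its difference was −2.89 ± 0.11 (adjusted p = 5.4e-17). Mx1 was at 4.72, 4.91 and 5.29, below the floor, so the size of its fitted difference, −2.75 ± 0.15 (adjusted p = 5.51e-14), is not read as exact. Dhx58 (LGP2), which tunes RNA sensing by Ifih1, was at 6.10, 6.68 and 7.03 and differed by −2.17 ± 0.12 (adjusted p = 4.63e-14). Its call was lost in 1 of 8 other settings, and its smallest difference among them was −0.86.

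Cxcl10 (−2.28 ± 0.19), Oas1a (−1.96 ± 0.12), Irf7 (−1.92 ± 0.10), Oasl2 (−1.91 ± 0.12), Ifit1 (−1.89 ± 0.12), Rsad2 (−1.75 ± 0.14) and Cmpk2 (−1.6 ± 0.14) came next, with an adjusted p of at most 2.81e-10. The exception was Ifitm1, at 10.24, 11.32 and 12.03, which was higher by 2.90 ± 0.19 (adjusted p = 8.14e-13), or 7.48-fold, with overlap. Thymocyte genes moved with this comparison: 11 of 11 were higher in fibroblasts, with a mean level of 8.63 to 10.99, against 6.38 to 8.55 in cTEC, 5.39 to 7.02 in mTEClo, 5.72 to 6.34 in mTEChi and 6.18 to 7.93 in the DC. With the thymocyte mean as a covariate, 8 members were past the threshold in place of 20. Mx1 then differed by −1.84, Oas1a by −0.95, Rsad2 by −0.58 and Cmpk2 by −1.23, and none of these 4 was called. The slope of this covariate came from differences between the 2 arrays of a group and was carried over a wider gap between populations. Lost calls can therefore reflect wider standard errors, and the part of thymocyte RNA in the result was not tested.

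Upstream of the members lie the ligands. Of 15 type I interferon genes on the list, 8 had a probe set of their own, of which Ifna1 and Ifna9 passed the floor; the other 7 were not analysed here. Median levels of Ifna1 ran from 4.97 in mTEChi to 5.73 in Sirpa-negative DC, and those of Ifnb1 from 4.62 in fibroblasts to 5.14 in mTEChi, close to or below the floor, so no difference in these ligands could be read. Ifng was above it only in mTEChi by median, at 5.45, 6.10 and 6.58, and was higher there than in the other 5 populations by 1.81 ± 0.17 (adjusted p = 1.23e-09).

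The receptor chains were present in every population. Ifnar1 had medians from 7.12 in cTEC to 8.08 in Sirpa-positive DC. Ifnar2 had medians from 8.83 in mTEChi to 10.35 in Sirpa-positive DC, and was lower in mTEChi than in the other 5 populations by −1.01 ± 0.09 (adjusted p = 5.4e-10). Of the 9 receptor and kinase genes, 3 were lower in mTEChi: Ifngr1 (−1.37 ± 0.12), Ifnlr1 (−1.18 ± 0.16) and Ifnar2. The kinase Tyk2 was at 9.44, 9.57 and 9.67 in Sirpa-negative DC and at 9.08, 9.22 and 9.38 in Sirpa-positive DC, against medians of 7.16 to 7.90 elsewhere. The 2 sets of Tyk2 arrays did not overlap, with a difference of −0.32 ± 0.10 (adjusted p = 0.0168 in limma). None of the 9 receptor and kinase genes differed by 2-fold between the DC populations in limma (0 of 9, against 5.37% of all genes). An unadjusted p under 0.05 was found for 6 of 9, and for 4357 of the 14495 genes tested.

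Other members of the pathway were read from lists. Of 22 tested genes that are also known as type I interferon-induced, 12 were lower and 0 higher in mTEChi than in mTEClo (7.81% and 11.8% of all genes), with a median of −1.09. Ifi204 (−2.72 ± 0.29), Ddx60 (−2.62 ± 0.20), Slfn8 (−2.44 ± 0.14) and Lgals9 (−2.38 ± 0.12) had the largest differences, with an adjusted p of at most 1.38e-08. Between the DC populations 2 of the 22 passed, both higher in Sirpa-positive DC (3.87% of all genes): Ddx60, an RNA helicase (2.98 ± 0.20, adjusted p = 1.99e-11), and Ifi47, which sat on the 2-fold line at 1.00 ± 0.13. Ddx60 was at 4.57, 4.67 and 5.07 in Sirpa-negative DC, under the floor, and at 7.28, 7.64 and 8.28 in Sirpa-positive DC, with no overlap. With one side under the floor, the size of its difference is not read as exact.

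Of 14 other sensors and adaptors, 4 were higher and 1 lower in Sirpa-positive than in Sirpa-negative DC (3.87% and 1.5% of all genes). Ddx58 (RIG-I, the sensor of RNA with a triphosphate end) was at 6.84, 7.47 and 7.90 in Sirpa-negative DC and at 9.30, 9.46 and 9.82 in Sirpa-positive DC. Its arrays did not overlap, and it was higher by 2.01 ± 0.13 (adjusted p = 1.31e-11). Tlr3, the endosomal receptor for double-stranded RNA, was at 10.24, 10.75 and 11.30 against 7.24, 7.62 and 8.35 and was lower by −3.0 ± 0.22 (adjusted p = 1.11e-10). Both sensors bind RNA, and they differed in opposite directions. Ddx58 was also lower in mTEChi than in mTEClo, by −1.88 ± 0.13 (adjusted p = 5.95e-12). Among 6 tested STAT and IRF factors outside the members, Irf8, needed by Sirpa-negative DC, was lower in Sirpa-positive DC by −1.32 ± 0.19. Irf5 was higher in Sirpa-negative DC than in the other 5 populations by 2.77 ± 0.10. Of 6 negative regulators tested, Socs3 was higher in Sirpa-positive than in Sirpa-negative DC by 1.64 ± 0.22.

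Over the 18 means of a population at an age, the members followed one another to unequal degrees. The 561 pairs had a median Pearson correlation of 0.508, from −0.611 to 0.977, and 76 were below 0. The correlation with the mean of the other members was 0.948 for Oas1a, 0.927 for Ifih1 (MDA5, a sensor of long double-stranded RNA) and 0.916 for Zbp1, a sensor of Z-form nucleic acid. It was lowest for Ifitm1 (−0.387), Ifitm3 (0.208), Oasl1 (0.211) and Isg20 (0.247). The 18 points share their arrays among all genes, and the values are given as a description. The non-member genes most like the mean of the members were Rgs12 (0.925), Rnf213 (0.903), Renbp (0.902), Phf11d (0.902), Bcl11a (0.876), Lpcat2 (0.874), 1600014C10Rik (0.871), Faim (0.87), Pxdc1 (0.869) and Ptms (0.868), of which Phf11d is on the list of other induced genes.

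With age, members moved in both directions. In the mean of the 6 populations, 4 members were higher and 9 lower at 6 months than at 1 month at an adjusted p under 0.05, against 14.9% and 21.7% of all genes. The median difference was −0.13 over the members and −0.06 over all genes. Scaling moved this split: with equal array medians, 8 members were higher and 3 lower. Between 3 and 6 months 3 were higher and 10 lower (15.5% and 16% of genes), or 7 and 7 with equal array medians. Between 1 and 3 months 2 were higher and 0 lower (1.84% and 4.5%). Counted either way, 13 of the 34 members were called from 1 to 6 months (36.6% of genes) and 13 from 3 to 6 (31.5%). From 1 to 3 months 2 were called (6.34%). Counted this way the members were close to all genes. The 10 lower from 3 to 6 months were above the 16% of genes, and this split moved with scaling. The results below concern single genes.

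Eif2ak2 rose with age in every population. In cTEC its 2 arrays were at 9.16 and 9.08 at 1 month, 9.03 and 8.48 at 3 months and 9.83 and 9.84 at 6 months. In mTEClo they were at 8.60 and 8.86, then 8.46 and 8.45, then 9.96 and 9.90. In mTEChi they were at 6.54 and 6.27, then 6.78 and 6.79, then 8.74 and 9.13. In each of these epithelial populations both arrays of 6 months lay above all 4 younger ones.

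The same held in the DC and the fibroblasts. Sirpa-negative DC were at 8.27 and 8.07 at 1 month, 7.64 and 8.31 at 3 months and 9.54 and 9.26 at 6 months. Sirpa-positive DC were at 7.80 and 8.13, then 8.11 and 8.24, then 9.55 and 9.44. Fibroblasts were at 7.98 and 7.90, then 7.26 and 7.54, then 8.36 and 8.67. In the mean of 6 populations Eif2ak2 was higher at 6 months than at 1 month by 1.30 ± 0.09 (adjusted p = 1.74e-10) and than at 3 months by 1.43 ± 0.09 (adjusted p = 2.54e-11). Leaving out any single array kept the first between 1.27 and 1.33.

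Within populations the rise from 1 to 6 months was 0.57 ± 0.21 in fibroblasts, 0.72 ± 0.21 in cTEC, 1.2 ± 0.21 in mTEClo, 1.23 ± 0.21 in Sirpa-negative DC, 1.53 ± 0.21 in Sirpa-positive DC and 2.53 ± 0.21 in mTEChi, with adjusted p of 0.0353, 0.0389, 0.000636, 0.00392, 0.000314 and 1.37e-07. Its size differed between populations in a test of all changes at once (moderated F, adjusted p = 0.00491). With 2 arrays per age, single arrays carried some of these calls: the cTEC call was lost without any 1 of the 4 cTEC arrays compared (lowest difference 0.68). The fibroblast call was lost without either array of 1 month or replicate 2 of 6 months (0.42), and the Sirpa-negative DC call without replicate 1 of 6 months (1.09). The 2 dimmer probe sets of Eif2ak2 differed by 0.61 and 0.54, in the same direction in 5 and 4 of 6 populations, and with the mean of its probe sets the rise was 0.81.

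Stat2, a part of ISGF3, rose beside it. Its arrays at 1, 3 and 6 months were at 7.04 and 7.52, then 7.31 and 7.78, then 8.77 and 8.99 in mTEClo, and at 7.21 and 7.49, then 8.17 and 7.86, then 9.03 and 8.79 in Sirpa-positive DC. In both populations the arrays of 6 months were the highest. In the mean of 6 populations Stat2 was higher at 6 months than at 1 month by 1.06 ± 0.10 (adjusted p = 1.8e-08) and than at 3 months by 1.05 ± 0.10 (adjusted p = 1.76e-08). From 1 to 6 months it rose in mTEClo (1.6 ± 0.23), Sirpa-positive DC (1.56 ± 0.23), Sirpa-negative DC (1.11 ± 0.23) and cTEC (0.92 ± 0.23). Leaving out 1 array ended the call in Sirpa-negative DC for each of the 4 arrays compared (0.97 to 1.24) and in cTEC for both arrays of 1 month and replicate 1 of 6 months (0.71 to 0.97). Its other probe set was higher by 0.68, in 6 of 6 populations. In Sirpa-negative DC, Stat2 and Eif2ak2 were the members called between 1 and 6 months, where 0.904% of all genes were called in the fit of all groups. The counts in the next sentence come from other fits, for which the share of all genes was not counted. They cannot be set against the 0.904%. Fitted on the compared groups alone, 12 members were called there (4 higher and 8 lower), and from 0 to 3 without 1 array, with 0 without its replicate 1 of 6 months.

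The third ISGF3 gene, Irf9, was higher at 6 months than at 1 month by 0.54 ± 0.10 (adjusted p = 0.000147) in the mean of 6 populations and higher in 6 of 6, from 8.91 and 9.01 to 9.76 and 9.89 in cTEC, for example. The call was made in cTEC alone among single populations (0.87 ± 0.23, adjusted p = 0.0242), and was lost without any 1 of the 4 cTEC arrays compared (0.80 to 0.93) and within the compared groups alone. The last of the 4 higher members was Zbp1, by 0.31 ± 0.11 (adjusted p = 0.0338), which 12 of 36 fits without 1 array did not call (0.26 to 0.30). It was not called with the mean of its probe sets (0.19), the replicate block or the 3′ minus 5′ covariate (0.02) either. Of 9 receptor and kinase genes, 3 rose and 1 fell from 1 to 6 months, where 36.6% of all genes were called: Ifngr2 (0.65 ± 0.07), Jak2 (0.35 ± 0.07) and Jak1 (0.33 ± 0.09) against Tyk2 (−0.26 ± 0.07).

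**Figure D4:**
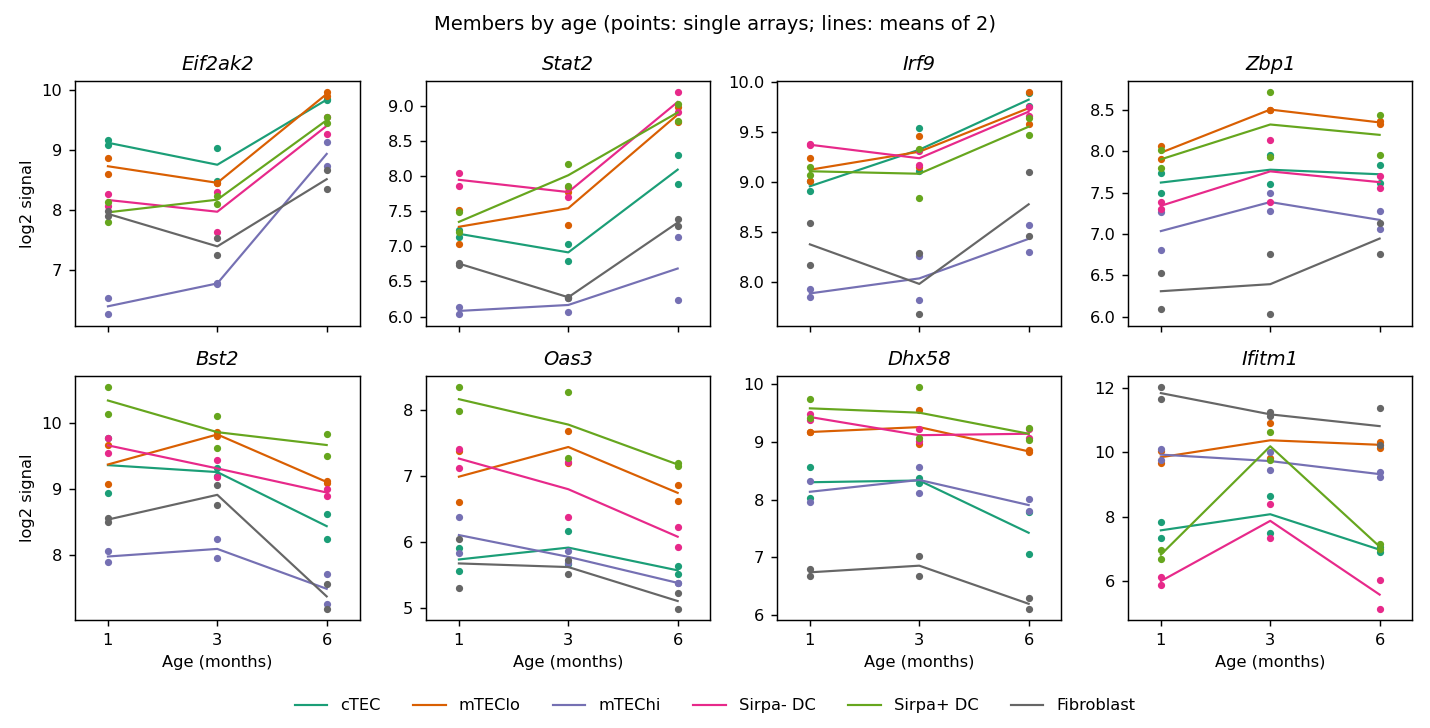
Log2 signal of 8 members at 1, 3 and 6 months; points are single arrays and lines join the means of 2 arrays in each of the 6 populations. Eif2ak2 is highest at 6 months in all 6 populations, Bst2 is lower at 6 than at 1 month in all 6, and the Ifitm1 arrays of 3 months are the highest in both DC populations.

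Bst2 fell in the mean of 6 populations by −0.71 ± 0.10 between 1 and 6 months (adjusted p = 1.54e-05). Its arrays went from 9.77 and 9.54 at 1 month through 9.43 and 9.18 to 9.0 and 8.88 at 6 months in Sirpa-negative DC, and from 8.50 and 8.56 through 9.06 and 8.75 to 7.56 and 7.17 in fibroblasts. The mean was lower at 6 months than at 1 month in 6 of 6 populations. Oas3 fell by −0.65 ± 0.13 (adjusted p = 0.000573) and Dhx58 by −0.45 ± 0.11 (adjusted p = 0.00245), each lower in 6 of 6 populations. Oas3 was close to or below the floor in cTEC, mTEChi and fibroblasts, with medians of 5.64, 5.75 and 5.41. The size of its change is therefore not read as exact. Bst2, Oas3 and Dhx58 were also called with quantile normalization and with equal array medians.

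The other members that were lower at 6 months were Rsad2 (−0.41 ± 0.13), Oas2 (−0.35 ± 0.11), Parp14 (−0.30 ± 0.11), Usp18 (−0.30 ± 0.10), Mx2 (−0.30 ± 0.10) and Oas1a (−0.29 ± 0.11), with adjusted p of 0.0126 to 0.0423. Mx2 was close to the floor in mTEChi and fibroblasts, with medians of 5.74 and 5.81, so the size of its change is not read as exact. The 3′ minus 5′ difference of control probe sets, which grows as RNA degrades, ran from 1.75 to 3.15 on the 12 arrays of 1 month and from 1.41 to 2.04 on those of 6 months, and with it as a covariate Rsad2 was at 0.00, Parp14 at 0.01 and Oas1a at 0.07. With that covariate Oas3 (−0.24) and Dhx58 (−0.20) were no longer called either, while Bst2, Eif2ak2, Stat2 and Irf9 were. The 2 other Rsad2 probe sets were higher at 6 months by 0.24 and 0.07. Another probe set of Herc6 rose by 1.11 in 6 of 6 populations, while the one used here changed by −0.05.

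Ifitm1 rose to 3 months and fell after it in Sirpa-positive DC. There its arrays were at 6.68 and 6.97 at 1 month, 10.63 and 9.75 at 3 months and 7.15 and 7.0 at 6 months. Both arrays of 3 months stood above the 4 others. The rise was 3.36 ± 0.41 (adjusted p = 6.86e-05) and the fall −3.11 ± 0.41 (adjusted p = 0.000425). It was the only member called between 1 and 3 months in this population, where 0.331% of all genes were called. In Sirpa-negative DC the arrays were at 6.13 and 5.88, then 7.35 and 8.40, then 5.13 and 6.04. The difference from 1 to 3 months, 1.87 ± 0.41, was not called (adjusted p = 0.136), and the fall of −2.29 ± 0.41 (adjusted p = 0.0081) was not called without replicate 2 of 3 months (−1.77) or replicate 1 of 6 months (−1.83). The change of Ifitm1 with age differed between populations (moderated F, adjusted p = 0.00106).

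Some genes that answer mainly to interferon gamma were also highest at 3 months. Of 10 tested, 6 were higher and 0 lower at 3 months than at 1 month in the mean of 6 populations (1.84% and 4.5% of all genes), and 4 were lower and 0 higher at 6 than at 3 months (16% and 15.5%). This list, like the members, was chosen with earlier results of these data known, so the counts are a description. Iigp1, a GTPase that attacks vacuoles of parasites, was at 7.49 and 7.38 at 1 month, 10.03 and 10.01 at 3 months and 6.62 and 7.26 at 6 months in Sirpa-negative DC. In Sirpa-positive DC it was at 8.72 and 8.14, then 10.67 and 10.72, then 7.91 and 8.34. In both, the arrays of 3 months were the highest. In the mean of 6 populations Iigp1 rose by 1.01 ± 0.12 (adjusted p = 3.65e-05) and fell by −1.14 ± 0.12 (adjusted p = 1.3e-07).

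Cxcl9, a chemokine for Cxcr3 like Cxcl10, rose by 1.29 ± 0.19 (adjusted p = 0.000411) and fell by −1.34 ± 0.19 (adjusted p = 9.96e-06). In cTEC it went from 6.21 and 6.80 at 1 month to 9.22 and 9.17 at 3 months and back to 7.03 and 7.45. Gbp2 rose by 0.78 ± 0.10 (adjusted p = 0.000156) and fell by −0.70 ± 0.10 (adjusted p = 1.31e-05). Of the 34 type I interferon-induced members, Ifitm1 (0.90 ± 0.17, adjusted p = 0.00355) and Parp9 (0.36 ± 0.08, adjusted p = 0.0151) were called between 1 and 3 months, both higher. From 3 to 6 months their differences were −1.24 ± 0.17 and −0.28 ± 0.08, both called. The comparisons of 3 with 1 month and of 6 with 3 months share the arrays of 3 months.

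**Figure D5:**
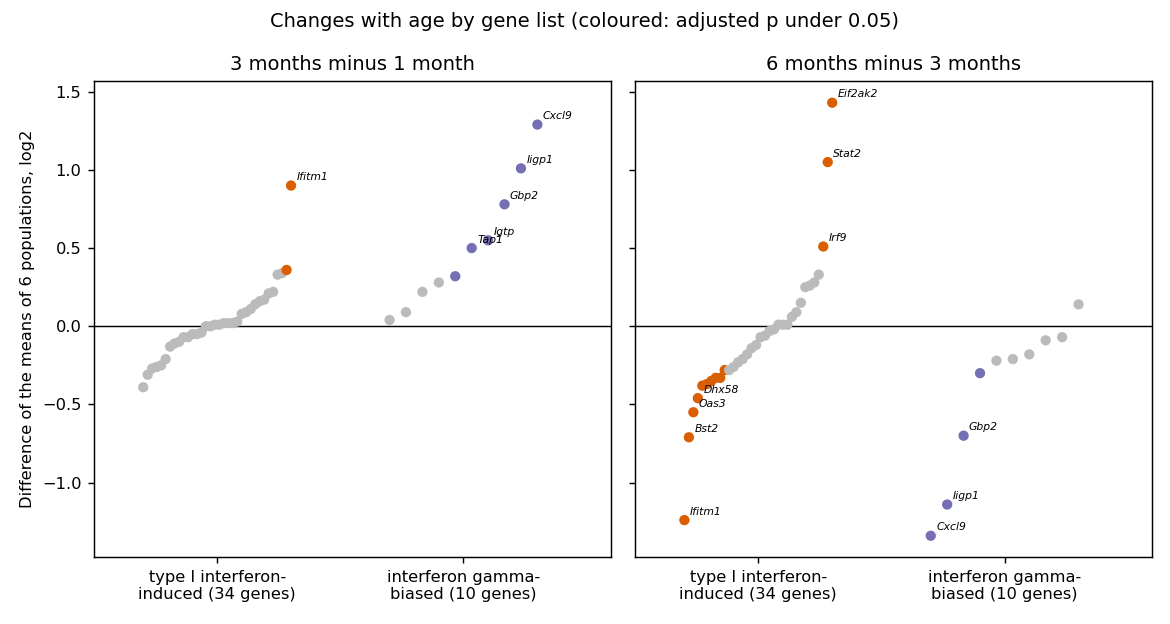
Difference of the means of 6 populations in log2 for 3 against 1 month (left) and 6 against 3 months (right); each point is a gene of the 34 measured members or of the 10 tested interferon gamma-biased genes, coloured at an adjusted p under 0.05. Of the 10 gamma-biased genes, 6 rose to 3 months and 4 fell to 6 months, while among the members 2 rose in the first step (Ifitm1 and Parp9) and 3 rose and 10 fell in the second.

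In fibroblasts, 9 members fell and 1 rose from 1 to 6 months, against 20.4% and 15.8% of all genes, with a median of −0.44 over the members and −0.07 over all genes. The split depended on scaling, with 5 higher and 10 lower after quantile normalization and 6 higher and 5 lower with equal array medians. Lgals3bp went from 9.66 and 9.40 through 9.12 and 8.74 to 8.36 and 7.08, a fall of −1.81 ± 0.27 (adjusted p = 2.54e-05). Bst2 fell by −1.16 ± 0.25, Ifit3 by −1.10 ± 0.26, Ifitm3 by −1.06 ± 0.32 and Ifih1 by −0.88 ± 0.16, with an adjusted p of at most 0.0117. Ifitm3 was at −0.37 without replicate 2 of 6 months and −0.36 with the 3′ minus 5′ covariate, and was not called there or without replicate 1 of 1 month. The member that rose was Eif2ak2.

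Marker genes and a sign of RNA quality moved with age in the same arrays. All 6 fibroblast genes fell (median −2.22), and 7 of 11 thymocyte genes rose (median 1.37), the thymocyte mean going from 8.63 and 10.22 at 1 month to 10.65 and 10.99 at 6 months. The 3′ minus 5′ difference went from 3.15 and 2.37 at 1 month to 1.86 and 1.72 at 6 months. With the thymocyte mean as a covariate, 4 members were called in place of 10, with the 3′ minus 5′ difference 3, and 4 were called without fibroblasts at 1 month, replicate 1, and 6 without fibroblasts at 6 months, replicate 2.

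Elsewhere, few members were called within a population between 1 and 6 months: 3 higher and 2 lower in cTEC (2.71% and 3.74% of genes), 2 and 0 in mTEClo (2.55% and 3.87%), 4 and 0 in mTEChi (6.17% and 3.34%, or 9.51% either way) and 2 and 0 in Sirpa-positive DC (1.35% and 0.717%). The cTEC split was 3 and 1 with equal array medians, and that of mTEChi 2 and 1 after quantile normalization. In mTEChi the risers beside Eif2ak2 were Ifitm3 (1.12 ± 0.32), Oasl2 (1.02 ± 0.27) and Ifi35 (0.84 ± 0.24), with adjusted p of 0.019 to 0.0273. Each of these 3 calls was lost without either array of 1 month or without replicate 2 of 6 months, and within the compared groups alone; after quantile normalization Ifitm3 was at 0.46 and Ifi35 at 0.27, not called. In cTEC the 2 that fell were Bst2 (−0.93 ± 0.25) and Dhx58 (−0.87 ± 0.27, adjusted p = 0.0494). The Dhx58 call was lost in 25 of 36 fits without 1 array and in 6 of 9 other settings, and its difference was −0.30 with the mean of its probe sets. Bst2 was not called without replicate 2 of 1 month (−0.51) or replicate 2 of 6 months (−0.74), nor in the compared groups alone or with the 3′ minus 5′ covariate.

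From 3 to 6 months, Eif2ak2 was called in all 6 populations and Stat2 in 4. Single arrays ended the Eif2ak2 call in cTEC (replicate 2 of 3 or of 6 months), Sirpa-negative DC (replicate 1 of 3 or of 6 months) and Sirpa-positive DC (replicate 1 of 6 months), and other settings ended it in cTEC, mTEChi and fibroblasts, with 0.42 in cTEC and 0.35 in fibroblasts for the mean of its probe sets. The Stat2 call was lost without replicate 1 of 3 or of 6 months in cTEC, replicate 1 of 3 months in mTEClo, and replicate 1 of 3 months or either array of 6 months in Sirpa-negative DC, and in fibroblasts within the compared groups alone. In cTEC 2 members were higher and 1 lower (2.74% and 1.1% of genes, or 3.84% either way). The splits were 2 and 0 in mTEClo (1.58% and 0.807%, or 2.39% either way), 2 and 1 in mTEChi (5.17% and 2.7%), 2 and 1 in Sirpa-negative DC (0.2% and 0.0897%), 1 and 1 in Sirpa-positive DC (0.849% and 0.386%) and 3 and 4 in fibroblasts (6.91% and 9.24%). The lower member in cTEC was Irf7 (−1.06 ± 0.22, adjusted p = 0.00958). After quantile normalization the splits were 2 and 4 in cTEC, 2 and 1 in mTEClo and 1 and 3 in mTEChi. With equal array medians they were 2 and 3 in cTEC and 3 and 1 in Sirpa-positive DC.

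Between 1 and 3 months 0 members were called in cTEC, mTEClo, mTEChi and Sirpa-negative DC by limma, where 5.4%, 1.77%, 0% and 0.0345% of all genes were called (0.0138% of genes were higher in Sirpa-negative DC). At an unadjusted p under 0.05 the members numbered 7, 4, 3 and 2, and all genes 2863, 1646, 385 and 418 of 14495. In fibroblasts Ifitm3 fell by −1.12 ± 0.32 (adjusted p = 0.0143) and Ifit2 rose by 0.94 ± 0.33 (adjusted p = 0.0419), where 10.4% and 10.1% of genes fell and rose, and after quantile normalization 1 rose and 3 fell. None was called (0) without replicate 1 of 1 month or replicate 2 of 3 months, or with the thymocyte or 3′ minus 5′ covariate. The change with age differed between populations for 7 of the 34 members, against 15.7% of all genes: Eif2ak2, Ifitm1, Lgals3bp, Ifit1, Ifit3, Ifih1 and Ifitm3. Without any 1 array, this count ran from 3 to 12, the highest without mTEChi at 6 months, replicate 1.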

How the data were processed

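The authors deposited 1 log2 signal per probe set for each of 36 arrays. The submitters' processing notes name GCRMA, and the series' design text names Gene Expression Commons normalization. The log2 base was read from the values and is not stated in the sources used here. Versions and parameters of the authors' steps were not given in the sources used here. Of 45101 probe sets, 34945 carried 1 gene symbol, 932 several and 9160 none; 64 were controls. The probe set with the highest mean stood for each gene. Genes above 5.66 in at least 2 arrays were tested.

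From these values, 18 group means were fitted with limma 3.58.1 in R 4.3.3 (lmFit, eBayes with an intensity trend, 18 residual degrees of freedom, Benjamini-Hochberg over 14495 genes). Population contrasts were called at an adjusted p under 0.05 and 2-fold, and age contrasts at an adjusted p under 0.05. All tests were two-sided. The number of arrays, 2 per group, limits the precision. The fit was tested on simulated data.

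Alternatives were quantile normalization, no filter, the mean of a gene's probe sets, no trend, the compared groups alone, a replicate block, a thymocyte or a 3′ minus 5′ covariate, a 1.5-fold threshold, and each array left out. Equal array medians were added after seeing the data. The members and lists were chosen with earlier results of these data known. In each comparison, up to 10 called members each way (all where 5 or fewer were called) were followed through the alternatives. Not all of them are printed with statistics above. Up to 4 called genes each way of every other list were named. So were genes of the ligand, receptor and transcription factor lists, and the 10 non-members most like the members' mean. Promoter windows are RefSeq's (GRCm38.p6).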

Additional observations from a re-analysis of the deposited data

Results flagged for a closer look

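In 9 of 204 groups of 6 arrays (34 members in 6 populations) 1 array stood apart from the other 5 by a Dixon test, and chance gives about 1 in 20. In mTEChi these were Isg20 with a high array of 10.12, Stat2 with a high array of 7.13, Mx1 with a low array of 5.63 and Rtp4 with a low array of 7.41. In Sirpa-negative DC low arrays stood at 8.86 for Oasl1, 10.08 for Parp12 and 8.08 for Herc6. In Sirpa-positive DC Parp9 had a high array of 11.20, and in fibroblasts Cmpk2 had a high array of 8.22.

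The change with age differed between populations for 7 members, by limma's moderated F-test with Benjamini-Hochberg adjustment over all genes. The adjusted p was 0.00106 for Ifitm1, 0.00233 for Lgals3bp, 0.00491 for Eif2ak2, 0.0335 for Ifit1, 0.0412 for Ifitm3, 0.0436 for Ifih1 and 0.0482 for Ifit3.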

How the results depend on the processing

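Of 171 member calls followed through the alternatives, 27 were lost with the 3′ minus 5′ covariate and 22 with the thymocyte covariate. Equal array medians lost 18, the mean of a gene's probe sets 17, quantile normalization 5, no filter 3 and no trend 2. In the compared groups alone 29 of 77 were lost, and some were lost in fits without 1 array. The causes were not tested. Beyond the 27 calls lost with the 3′ minus 5′ covariate, 3 turned sign with it between 1 and 6 months in the mean of 6 populations. These were Rsad2 (0.00), Parp14 (0.01) and Oas1a (0.07), and 141 of the 171 calls stayed with that covariate. Replicate numbers were not taken to pair the samples, since no label ties a number to a mouse. Of 45 correlations of deviations between same-numbered arrays, 17 were over 0.1 and 0 under −0.1 (from −0.068 to 0.418, median 0.086). Whether the numbers pair arrays, at single ages or at all, was not settled. The replicate block, with a consensus correlation of 0.056, ended 6 calls and moved no count by over 1.5 times. Equal array medians shifted the median of all genes by −0.25 in mTEChi, 0.24 in Sirpa-negative DC, 0.13 in Sirpa-positive DC, −0.12 in mTEClo, −0.11 between the mTEC, and 0.26 and 0.22 in fibroblasts at 6 against 1 and 3 months; quantile normalization shifted it by 0.12 in Sirpa-negative DC and 0.13 in fibroblasts from 1 to 6 months.

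Shares of all genes were not counted under the alternative settings, so the counts below have no background beside them. Counts of called members moved as follows. At 1.5-fold they were 16 in cTEC, 22 in mTEClo, 24 in mTEChi, 24 in Sirpa-positive DC and 31 in fibroblasts, each against the other 5 populations, 18 between the DC and 14 between cTEC and mTEC. With the thymocyte covariate they were 8 in fibroblasts against the rest, 0 and 4 in fibroblasts at 3 and 6 months against 1, 4 in the mean at 3 months against 1 and 3 for the difference of age changes. With the 3′ minus 5′ covariate they were 1 in cTEC, 1 in Sirpa-negative DC, 3 in fibroblasts and 4 in the mean at 6 months against 1, 0 in fibroblasts at 3 months against 1 and 4 for the difference of age changes. In the compared groups alone they were 1, 0 and 5 in cTEC and 1, 0 and 0 in fibroblasts (3 against 1, 6 against 1, 6 against 3 months). At 6 months against 1 they were 6 in mTEClo, 1 in mTEChi, 12 in Sirpa-negative DC and 4 in Sirpa-positive DC, and 0 in mTEChi at 6 against 3. Quantile normalization gave 6 in cTEC at 6 against 3 months, 1 in mTEClo and 4 in fibroblasts at 3 against 1, and 4 for the difference of age changes. Equal array medians gave 5 in cTEC and 4 in Sirpa-positive DC at 6 against 3 months, and the mean of probe sets 4 in mTEClo at 6 against 3 and 5 in the mean at 3 against 1.

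With 1 array left out, counts ran, for 3 against 1, 6 against 1 and 6 against 3 months, from 0 to 1, 0 to 6 and 1 to 6 in cTEC and from 0 to 4, 4 to 13 and 4 to 8 in fibroblasts. For the latter pair of contrasts they ran from 1 to 7 and 1 to 9 in mTEChi and from 0 to 3 in both in Sirpa-negative DC. At 6 against 3 months they ran from 1 to 2 in mTEClo and 1 to 3 in Sirpa-positive DC, at 3 against 1 in the mean from 2 to 5, and for the difference of age changes from 3 to 12. No population count moved by over 1.5 times with 1 array left out.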
